A study of Mus musculus with 13 samples.

Results

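Tight junctions of epithelia were followed through 8 genes: the claudins Cldn1, Cldn3, Cldn4, Cldn7 and Cldn18, occludin (Ocln), the scaffold protein ZO-1 (Tjp1) and the junctional adhesion molecule JAM-A (F11r). They were taken by gene symbol from 46679 gene IDs, and all 8 were found and passed the filter on low counts in each comparison. RNA had been sequenced from whole tissue of female FVB mice aged 10 weeks. Mammary tumors came from 3 mice (6877, 6880 and 6881) in which 250000 cells of the line Met1 had been placed in the inguinal mammary fat pad at 8 weeks of age, 2 weeks before the tissue was taken. Tumor-bearing lungs came from 4 mice treated the same way (6877, 6879, 6880 and 6881), so 3 of these lungs share their mouse with a tumor. Normal lungs came from 4 mice without a tumor (6886, 6887, 6888 and 6893), and whether these mice had a sham injection is not given in the sources used here. Met1 is 1 line, derived from a mammary carcinoma of an FVB mouse carrying the polyoma middle T oncogene under the MMTV promoter, and a tumor grown from it also holds cells of the host. All mice share the strain and sex, and no other allele or agent is named.

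Tight junctions seal the space between neighbouring epithelial cells. Claudins form their strands and set which ions and solutes pass, occludin and JAM-A are further membrane proteins of the junction, and ZO-1 ties the strands to the actin cytoskeleton. In the lung, claudin-18 is the characteristic claudin of the alveolar epithelium, with claudin-3 and claudin-4 as further claudins of alveolar cells, while claudin-3, claudin-4 and claudin-7 are typical of luminal mammary epithelium and of many carcinomas.

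The genes lie on 7 chromosomes of GRCm38, the assembly also known as mm10. Cldn3 (chr5:134986214-134987472, plus strand) and Cldn4 (chr5:134945119-134946934, minus strand) are neighbours on the same chromosome. Cldn1 is at chr16:26356642-26371841 on the minus strand and Cldn7 at chr11:69964779-69967885 on the plus strand. Cldn18 spans chr9:99689461-99717267 on the minus strand and has alternative first exons, known as a lung form and a stomach form, which a value per gene does not separate. Ocln is at chr13:100496507-100552718 (minus strand), Tjp1 at chr7:65296165-65527781 (minus strand) and F11r at chr1:171437535-171464603 (plus strand). All 8 are protein-coding. Cldn3 shares 40 of its 1259 exonic bases with the antisense gene Wbscr25, so reads from those bases cannot be assigned to 1 of them without strand. No other member shares exonic bases with a neighbour.

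Promoter sequences are shown for the claudins and occludin that passed the test in both tumor comparisons, because regulators of epithelial junctions are known to bind there. Each is the 250 bases before a RefSeq transcript start on GRCm38.p6, printed 5′ to 3′ in the direction of transcription. All 8 members matched the RefSeq promoters, with 11 starts among them. Capitals mark CACCTG or its other-strand form CAGGTG, the E-box letters read by Snail and Zeb repressors. Of the starts of Cldn7 and Ocln, only those with these letters are printed. The other start of each gene, without the letters, is not printed. The windows are chr9:99717268-99717517 and chr9:99710064-99710313 (Cldn18, minus strand), chr5:134985964-134986213 (Cldn3, plus), chr5:134946935-134947184 (Cldn4, minus), chr11:69965171-69965420 (Cldn7, plus) and chr13:100552499-100552748 (Ocln, minus).
Cldn18, upstream start: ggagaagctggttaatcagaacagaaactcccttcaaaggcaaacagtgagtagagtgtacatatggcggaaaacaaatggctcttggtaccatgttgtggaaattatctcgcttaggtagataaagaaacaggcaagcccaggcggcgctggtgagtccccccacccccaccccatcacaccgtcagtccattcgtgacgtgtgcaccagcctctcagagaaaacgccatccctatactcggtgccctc
Cldn18, downstream start: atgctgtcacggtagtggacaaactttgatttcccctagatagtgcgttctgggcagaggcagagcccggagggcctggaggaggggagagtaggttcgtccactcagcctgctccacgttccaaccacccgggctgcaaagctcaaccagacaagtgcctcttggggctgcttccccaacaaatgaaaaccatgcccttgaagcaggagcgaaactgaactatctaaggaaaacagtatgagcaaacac
Cldn3: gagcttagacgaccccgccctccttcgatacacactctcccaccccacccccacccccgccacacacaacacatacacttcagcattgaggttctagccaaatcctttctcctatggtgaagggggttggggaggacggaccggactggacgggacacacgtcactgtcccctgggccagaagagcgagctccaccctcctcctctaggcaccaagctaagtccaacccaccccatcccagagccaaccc
Cldn4: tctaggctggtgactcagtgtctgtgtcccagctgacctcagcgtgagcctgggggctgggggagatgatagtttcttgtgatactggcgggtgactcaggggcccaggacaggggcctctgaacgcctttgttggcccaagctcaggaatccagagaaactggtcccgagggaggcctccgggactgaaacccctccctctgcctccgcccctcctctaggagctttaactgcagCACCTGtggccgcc
Cldn7: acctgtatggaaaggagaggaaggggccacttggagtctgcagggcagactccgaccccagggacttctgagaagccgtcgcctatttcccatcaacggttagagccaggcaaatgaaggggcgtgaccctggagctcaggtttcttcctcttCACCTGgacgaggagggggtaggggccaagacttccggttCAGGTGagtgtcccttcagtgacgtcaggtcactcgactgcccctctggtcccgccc
Ocln: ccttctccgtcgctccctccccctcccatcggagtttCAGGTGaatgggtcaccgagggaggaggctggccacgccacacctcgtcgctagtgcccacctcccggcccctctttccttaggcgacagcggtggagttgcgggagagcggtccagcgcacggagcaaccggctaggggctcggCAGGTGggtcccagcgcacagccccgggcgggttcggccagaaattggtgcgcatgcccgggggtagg

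E-box letters stood in 1 place before Cldn4 (first base 14 bases before the start), in 2 places before 1 of the Cldn7 starts (97 and 57 bases before it) and in 2 places before 1 of the Ocln starts (213 and 68 bases before it). F11r held 1, at 122 bases before its start. Neither start of Cldn18 held the letters, nor did the starts of Cldn1, Cldn3 and Tjp1 or the other starts of Cldn7 and Ocln. Among all 32851 promoter windows of this length, 17.2% held them. The letters AACCGGTT, a core bound by grainyhead-like factors and identical on both strands, were in 0 of the 11 member windows and in 0.116% of all windows. The member windows ranged from 51.2% to 69.2% G and C, against a median of 52.4% over all windows.

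The 13 libraries held 8321037 to 13982903 estimated counts. They had been prepared in 2 batches: all 3 tumors, tumor-bearing lung 6877 and normal lungs 6887 and 6893 were in batch 2, and tumor-bearing lungs 6879, 6880 and 6881 were in batch 1. Normal mice 6886 and 6888 have a library in each batch. Their batch 1 library was used so that each mouse counts once, which left 11 libraries. Protein-coding genes took 45.6% to 69.6% of the counts of a library. Levels below are CPM, counts relative to library size with TMM scaling, and differences are log2 fold changes of the edgeR fit with the preparation batch as a term, each with its standard error (SE). Levels are set between genes only as TPM, which is per length.

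**Figure D1:**
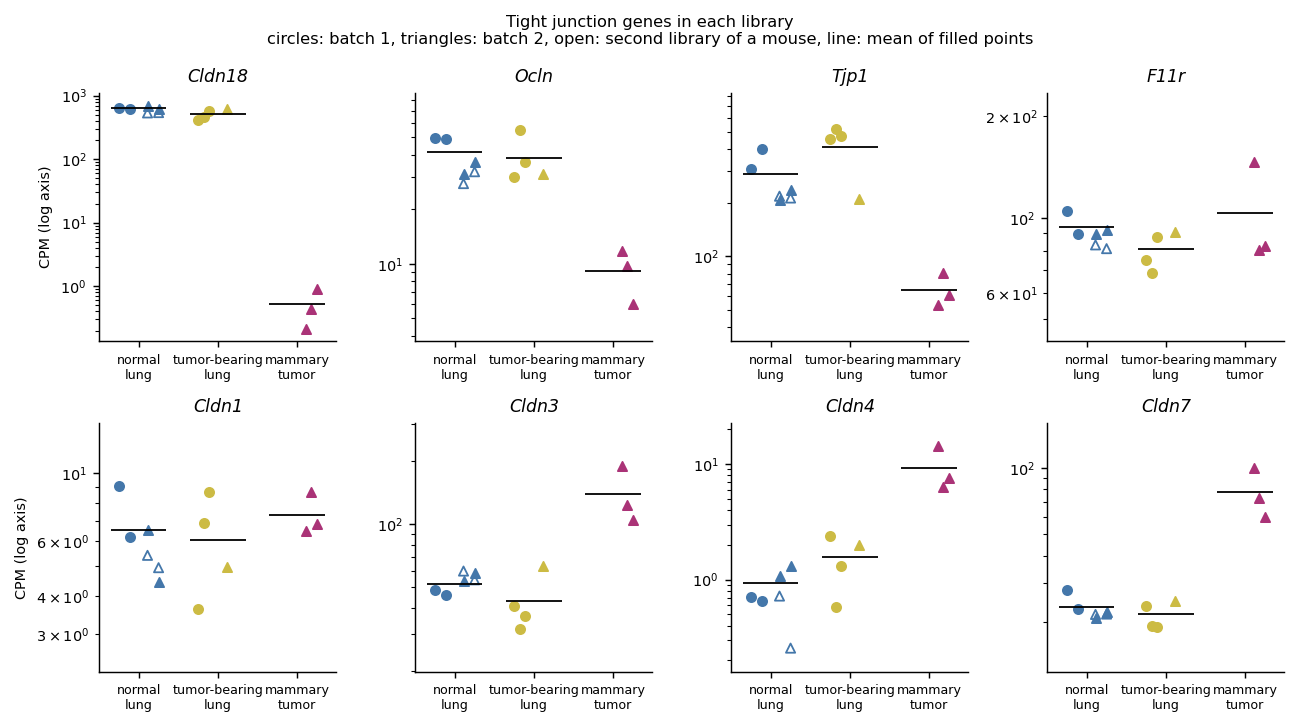
Level of each tight junction gene in each of the 13 libraries, as CPM on a log axis that differs between panels. Circles are batch 1, triangles batch 2, open symbols the second library of a mouse, and lines the mean of the filled points; Cldn18 stays below 1 CPM in all 3 tumors, and Cldn3, Cldn4 and Cldn7 lie above every lung library there.

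Tumors differed from lung in 6 of the 8 genes, in both directions. Cldn3, Cldn4 and Cldn7 were higher in mammary tumors than in either group of lungs, and Cldn18, Ocln and Tjp1 were lower. F11r and Cldn1 passed the test in neither comparison. In edgeR's quasi-likelihood test with Benjamini-Hochberg adjustment at 0.05, 49.3% of all 18297 genes passed for tumor against normal lung (24.5% higher, 24.7% lower) and 46.3% for tumor against tumor-bearing lung (22.6% higher, 23.7% lower), so passing the test is common between these tissues. The groups did not overlap in CPM for the same 6 members, where 53.7% of all genes did not overlap for tumor against normal lung and 54% for tumor against tumor-bearing lung. Of all genes, 20.2% were higher in tumors in both comparisons and 21.3% were lower in both, and these comparisons share the tumor libraries. The members' median log2 fold change was 0.25 against normal lung and 0.46 against tumor-bearing lung, beside −0.04 and −0.10 over all genes tested.

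Cldn18, the alveolar claudin, showed the widest gap of the 8. Normal lungs had 641, 624.6, 695 and 615 CPM (mice 6886, 6888, 6887 and 6893), and tumor-bearing lungs had 413, 459, 579 and 618 CPM (mice 6879, 6880, 6881 and 6877). Tumors 6877, 6880 and 6881 had 0.215, 0.431 and 0.907 CPM, which rest on 1.80, 5.53 and 11.7 estimated counts. No lung library was below 413 CPM and no tumor library reached 1 CPM. The group means were 644 ± 36.0 CPM in normal lung (SD, n = 4), 517 ± 96.9 CPM in tumor-bearing lung (n = 4) and 0.518 ± 0.354 CPM in tumor (n = 3). The log2 fold change of tumor against normal lung was −10.20 (SE 0.38, edgeR adjusted p 9.27e-09), a fitted level 1177-fold lower. Against tumor-bearing lung it was −9.92 (SE 0.39, edgeR adjusted p 1.74e-08), or 971-fold lower. With so few counts in tumors the size depends on single libraries: without tumor 6881 these values became −10.81 and −10.53. In bulk tissue, fewer cells of a type and less RNA per cell cannot be told apart.

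Markers of alveolar cells moved in the same libraries. Ager, a receptor that defines alveolar type 1 cells, averaged 1143 CPM in normal lung and 2.13 CPM in tumor. Sftpc, the surfactant protein that defines alveolar type 2 cells, averaged 6665 CPM in normal lung, 4024 CPM in tumor-bearing lung and 4.67 CPM in tumor. Of the alveolar type 1 list, 6 of 7 genes were lower in tumors than in normal lung and 1 was higher, and of the type 2 list 7 of 8 were lower. The summed level of the type 2 list was 9422 to 14467 CPM in normal lungs, 6074 to 14229 CPM in tumor-bearing lungs and 191 to 310 CPM in tumors, and that of the type 1 list was 2525 to 3894, 2732 to 3154 and 359 to 661 CPM. The tumor sums rest largely on Etv5 (mean 168 CPM), a transcription factor, and on Aqp5 (mean 318 CPM), a water channel. None of the genes of either list was at 0 throughout a group. The part of these cells in the Cldn18 result was not tested.

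Cldn3, Cldn4 and Cldn7, the claudins of luminal epithelium, were all higher in tumors than in lungs. No normal mammary gland was among the libraries, so these are differences from lung and not from the tissue of origin. Cldn3 had 190.3, 123 and 105 CPM in tumors 6877, 6880 and 6881. Normal lungs 6886, 6888, 6887 and 6893 had 48.8, 45.9, 53.6 and 58.8 CPM of Cldn3, and tumor-bearing lungs 6879, 6880, 6881 and 6877 had 40.6, 31.7, 36.5 and 63.5 CPM. The lowest tumor therefore lay above the highest lung. The log2 fold change of Cldn3 was 1.17 against normal lung (SE 0.24, edgeR adjusted p 0.00186) and 1.35 against tumor-bearing lung (SE 0.26, edgeR adjusted p 0.00139). On TPM, limma no longer called the difference from normal lung, which was 0.78 on the log2(TPM + 1) scale (adjusted p 0.0765) and 0.87 on the log2(TPM + 0.1) scale (adjusted p 0.111). These TPM fits had no TMM scaling, and the median difference of all genes in them was −0.04 and −0.19.

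Cldn7 had 100.2, 73.1 and 60.1 CPM in the 3 tumors, in the same order of mice. Its lung values were close to each other: 27.8, 23.0, 20.8 and 22.2 CPM in normal lungs 6886, 6888, 6887 and 6893, and 23.7, 19.2, 19.1 and 25.0 CPM in tumor-bearing lungs 6879, 6880, 6881 and 6877. No lung library reached the lowest tumor. The log2 fold change of Cldn7 was 1.72 against normal lung (SE 0.23, edgeR adjusted p 8.23e-05) and 1.84 against tumor-bearing lung (SE 0.25, edgeR adjusted p 0.000114), that is 3.30-fold and 3.58-fold.

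Cldn4 was the least abundant of the 3 and had the largest relative difference. Tumors 6877, 6880 and 6881 had 14.2, 6.29 and 7.53 CPM. Normal lungs had 0.705, 0.658, 1.07 and 1.32 CPM (mice 6886, 6888, 6887 and 6893) and tumor-bearing lungs 2.40, 0.582, 1.31 and 2.01 CPM (mice 6879, 6880, 6881 and 6877). The lung values rest on few reads, 2.91 to 20.9 estimated counts a library, and lie below every tumor. Against normal lung the log2 fold change was 2.97 (SE 0.51, edgeR adjusted p 0.000535, 7.81-fold), and against tumor-bearing lung it was 2.06 (SE 0.58, edgeR adjusted p 0.0128, 4.16-fold). The call against tumor-bearing lung was lost without tumor-bearing lung 6877 (1.86, edgeR adjusted p 0.112). With batch 2 alone, where tumor-bearing lung 6877 stands alone, the log2 fold change was 2.23. A fit on all 13 libraries with the mouse as a replicate block gave 3.04 (edgeR adjusted p 0.00249).

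Tumor 6877 was the highest of the 3 tumors for each of these claudins, and also for Ocln, F11r and Epcam, the epithelial adhesion molecule that binds claudin-7. It was the lowest of the 3 for Tjp1, Cldn1 and Cldn18. It was also the lowest for the epithelial gene Cdh1 (131, 150 and 133 CPM in tumors 6877, 6880 and 6881). Epcam had 445, 319 and 274 CPM in tumors 6877, 6880 and 6881 and 22.7 to 38.7 CPM in the 8 lungs, with a log2 fold change against normal lung of 3.21 (SE 0.25, edgeR adjusted p 1.03e-06). A list of 8 mammary epithelial markers summed to 377 to 575 CPM in tumors, 8.17 to 11.3 CPM in normal lungs and 12.2 to 16.1 CPM in tumor-bearing lungs. Of the 6 markers of that list that could be tested against normal lung, 5 were higher in tumors, led by Csn3 (the milk protein kappa-casein, 328 against 0.500 CPM), and the keratin Krt17 was at 0 in all tumor-bearing lungs. Pan-epithelial markers summed to 925 to 1278 CPM in tumors against 524 to 835 CPM in normal lungs, but the 6 genes of this list were divided. Against normal lung 3 were higher in tumors (Epcam and the keratins Krt8 and Krt18) and 2 lower. Krt19, a keratin of simple epithelia, had 4.31 CPM in tumors against 84.9 CPM in normal lung (−4.27, SE 0.22, edgeR adjusted p 5.37e-08), and Krt7 had 98.8 against 218 CPM (edgeR adjusted p 0.0112). The part of epithelial content in the higher level of the 3 claudins was not tested.

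Occludin and ZO-1 were lower in tumors. Ocln had 11.8, 9.73 and 5.96 CPM in tumors 6877, 6880 and 6881, 49.2, 48.8, 31.2 and 36.5 CPM in normal lungs 6886, 6888, 6887 and 6893, and 30.3, 54.9, 36.5 and 31.4 CPM in tumor-bearing lungs 6879, 6880, 6881 and 6877. All lungs lay above all tumors. The log2 fold change was −1.94 against normal lung (SE 0.28, edgeR adjusted p 0.000142, 3.84-fold lower) and −1.73 against tumor-bearing lung (SE 0.30, edgeR adjusted p 0.000655, 3.32-fold lower). On TPM the latter was not called by limma, with −0.45 on the log2(TPM + 1) scale (adjusted p 0.295) and −1.11 on the log2(TPM + 0.1) scale (adjusted p 0.0984). Without TMM scaling, the median difference of all genes in these fits was 0.08 and 0.22.

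Tjp1 had 53.2, 80.7 and 61.0 CPM in tumors 6877, 6880 and 6881. Among normal lungs, the batch 1 libraries of 6886 and 6888 had 311 and 402 CPM and the batch 2 libraries of 6887 and 6893 had 208 and 236 CPM. Tumor-bearing lungs 6879, 6880 and 6881 of batch 1 had 454, 519 and 474 CPM, and 6877 of batch 2 had 209 CPM. Batch 1 lungs were thus all above batch 2 lungs for this gene, and the tumors, all of batch 2, lay below both. The log2 fold change was −1.68 against normal lung (SE 0.22, edgeR adjusted p 6.27e-05, 3.20-fold lower) and −1.93 against tumor-bearing lung (SE 0.25, edgeR adjusted p 6.72e-05, 3.82-fold lower). Without the batch term the latter was −2.68. Within batch 2 alone, tumor against normal lung gave −1.73.

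F11r and Cldn1 did not pass in either comparison of tumors. F11r had 147, 80.5 and 82.5 CPM in tumors 6877, 6880 and 6881 and 68.9 to 105 CPM in the 8 lungs, so that 1 tumor lay above the lungs and the others among them. Its log2 fold change was 0.10 against normal lung (95% interval −0.43 to 0.63, edgeR adjusted p 0.765) and 0.31 against tumor-bearing lung (−0.27 to 0.89, edgeR adjusted p 0.362). Without tumor 6877 these were −0.23 and −0.01. Cldn1, a claudin best known for the skin barrier, had 6.46, 8.69 and 6.82 CPM in the tumors and 3.63 to 9.06 CPM in the lungs, with tumors inside the lung range. Its differences were 0.39 against normal lung (95% interval −0.36 to 1.15, edgeR adjusted p 0.375) and 0.61 against tumor-bearing lung (−0.24 to 1.45, edgeR adjusted p 0.220). The intervals leave room for a change of more than 1.5-fold in F11r and of more than 2.0-fold in Cldn1.

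**Figure D2:**
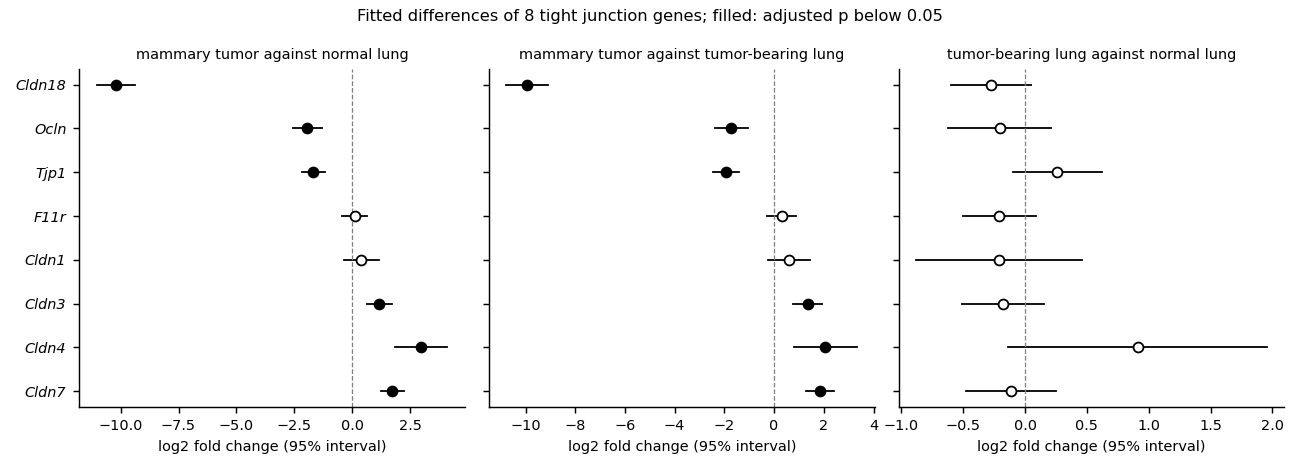
Fitted log2 fold change of each tight junction gene (point) with its 95% interval (line) in the 3 comparisons, with axes that differ between panels. Filled points have an edgeR adjusted p below 0.05: 6 of 8 in each comparison of tumors and 0 of 8 between the groups of lungs.

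Since all tumors were of batch 2, the comparison with normal lung was also made within that batch, with 3 tumors and 4 normal lungs. The same 6 members passed there. The log2 fold changes were −9.96 for Cldn18, −1.79 for Ocln, −1.73 for Tjp1, 1.31 for Cldn3, 3.43 for Cldn4 and 1.86 for Cldn7, with 0.27 for F11r and 0.49 for Cldn1 not called.

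Levels per length placed the 8 genes in different orders in the tissues. In normal lung the order by mean TPM was Cldn18 (25.9 ± 6.14), Tjp1 (12.5 ± 6.15), F11r (8.69 ± 2.78), Cldn3 (4.14 ± 0.774), Cldn7 (3.29 ± 1.24), Ocln (2.77 ± 1.24), Cldn1 (0.243 ± 0.125) and Cldn4 (0.0526 ± 0.0101, all SD, n = 4). Of these neighbours, Tjp1 and F11r, Cldn3 and Cldn7, and Cldn7 and Ocln had means closer than their spread between mice. Within each of the 4 libraries, though, these pairs kept the order given. In tumors it was Cldn3 (8.60 ± 3.59), Cldn7 (8.06 ± 2.83), F11r (7.23 ± 3.38), Tjp1 (1.98 ± 0.159), Ocln (0.442 ± 0.166), Cldn4 (0.428 ± 0.239), Cldn1 (0.193 ± 0.00444) and Cldn18 (0.0157 ± 0.0115, all SD, n = 3). The means of the leading 3 were closer than their spread between mice, as were those of Ocln and Cldn4, and of Cldn4 and Cldn1. Within each tumor, though, Cldn3 and Cldn7 were above F11r, and Cldn4 was above Cldn1. Cldn3 and Cldn7, and Ocln and Cldn4, changed order between tumors. In tumor-bearing lung Cldn18 (13.7 ± 4.55 TPM, SD, n = 4) and Tjp1 (11.1 ± 5.11) again led, within their spread, and Cldn1 (0.145 ± 0.0694) and Cldn4 (0.0556 ± 0.0232) were again last.

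The claudin family as a whole had a different makeup in tumor and lung. Of the summed TPM of 33 claudin genes, Cldn18 made up 49.5% ± 3.16 in normal lung, 42.4% ± 5.56 in tumor-bearing lung (SD, n = 4 each) and 0.0918% ± 0.0773 in tumor (n = 3). Cldn5, the claudin of blood vessel endothelium, made up 30.1% ± 4.18, 38.6% ± 7.61 and 0.689% ± 0.462. Cldn3 made up 8.01% ± 1.30, 7.08% ± 2.06 and 42.4% ± 1.46, and Cldn7 6.09% ± 0.666, 6.08% ± 0.880 and 40.4% ± 2.17. Tumor claudin RNA was thus mainly of 2 genes in near equal amounts, and lung claudin RNA mainly of another 2. Cldn3, Cldn4 and Cldn7 summed to 82.4% to 87.2% in the 3 tumors, 12.7% to 17.2% in the 6 normal lung libraries and 10.7% to 16.9% in the tumor-bearing lungs. Cldn12, a claudin of broad expression, was the next in tumors, at 6.44% ± 1.53. Shares are tied to each other, so the fall of one raises the others. Endothelial markers summed to 1412 to 3243 CPM in normal lungs, 1528 to 2828 CPM in tumor-bearing lungs and 69.7 to 91.8 CPM in tumors, with none at 0, and their part in the Cldn5 share was not tested.

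**Figure D3:**
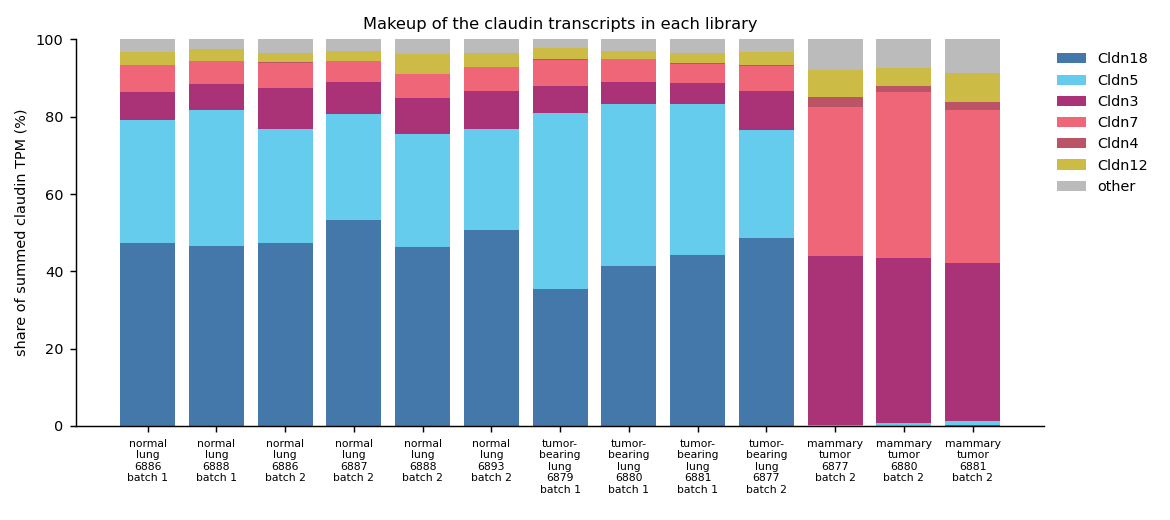
Share of each claudin gene in the summed claudin TPM of each library, in percent, with 1 bar a library labelled by tissue, mouse and batch. Cldn18 and Cldn5 fill most of each lung bar, and Cldn3 and Cldn7 most of each tumor bar.

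The ratio of Cldn7 to Cldn3, in TPM, was 0.889, 1.00 and 0.969 in tumors 6877, 6880 and 6881. In lungs it differed by batch: 0.964 and 0.847 in the batch 1 libraries of normal mice 6886 and 6888 and 0.611 and 0.675 in their batch 2 libraries. Tumor-bearing lungs of batch 1 had 0.984, 1.02 and 0.882 (6879, 6880 and 6881), and 6877 of batch 2 had 0.664. Within batch 2, the tumors therefore lay above all lungs in this ratio.

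Set against Epcam, Cldn3, Cldn4 and Cldn7 were not higher in tumors, but set against Cdh1 (E-cadherin) they were. The ratio of Cldn3 to Epcam in TPM was 2.64 ± 0.293 in normal lung, 2.54 ± 0.508 in tumor-bearing lung (SD, n = 4 each) and 0.691 ± 0.0439 in tumor (n = 3). That of Cldn7 was 2.01 ± 0.187, 2.24 ± 0.557 and 0.658 ± 0.0148, and that of Cldn4 was 0.0348 ± 0.0112, 0.0707 ± 0.0447 and 0.0334 ± 0.00788. So Epcam was higher in tumors by more than Cldn3 and Cldn7 were. Beside Cldn4, Epcam had about the same difference from normal lung (3.21 against 2.97), and the larger one from tumor-bearing lung (3.38 against 2.06). F11r went from 5.39 ± 0.271 in normal lung to 0.576 ± 0.0768 in tumor, Ocln from 1.67 ± 0.372 to 0.0361 ± 0.00600, Tjp1 from 7.58 ± 2.59 to 0.176 ± 0.0619 and Cldn1 from 0.147 ± 0.0389 to 0.0170 ± 0.00517, all as ratios to Epcam. Cdh1, another epithelial gene, itself had a ratio to Epcam of 3.31 ± 0.656 in normal lung and 0.229 ± 0.0581 in tumor. Its level was 5.49 ± 2.41 TPM in normal lung, 2.97 ± 1.13 TPM in tumor-bearing lung and 2.65 ± 0.167 TPM in tumor. With TMM scaling these levels of Cdh1 were 205 ± 42.3, 175 ± 42.1 and 138 ± 10.2 CPM. Between tumor-bearing and normal lung Cdh1 differed by −0.23 in log2 (SE 0.20, edgeR adjusted p 0.644). Relative to Cdh1, Cldn3, Cldn4 and Cldn7 were therefore higher in tumors than in lungs. A ratio thus depends on the epithelial gene chosen, also in its direction. These ratios are descriptions and were not tested.

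**Figure D4:**
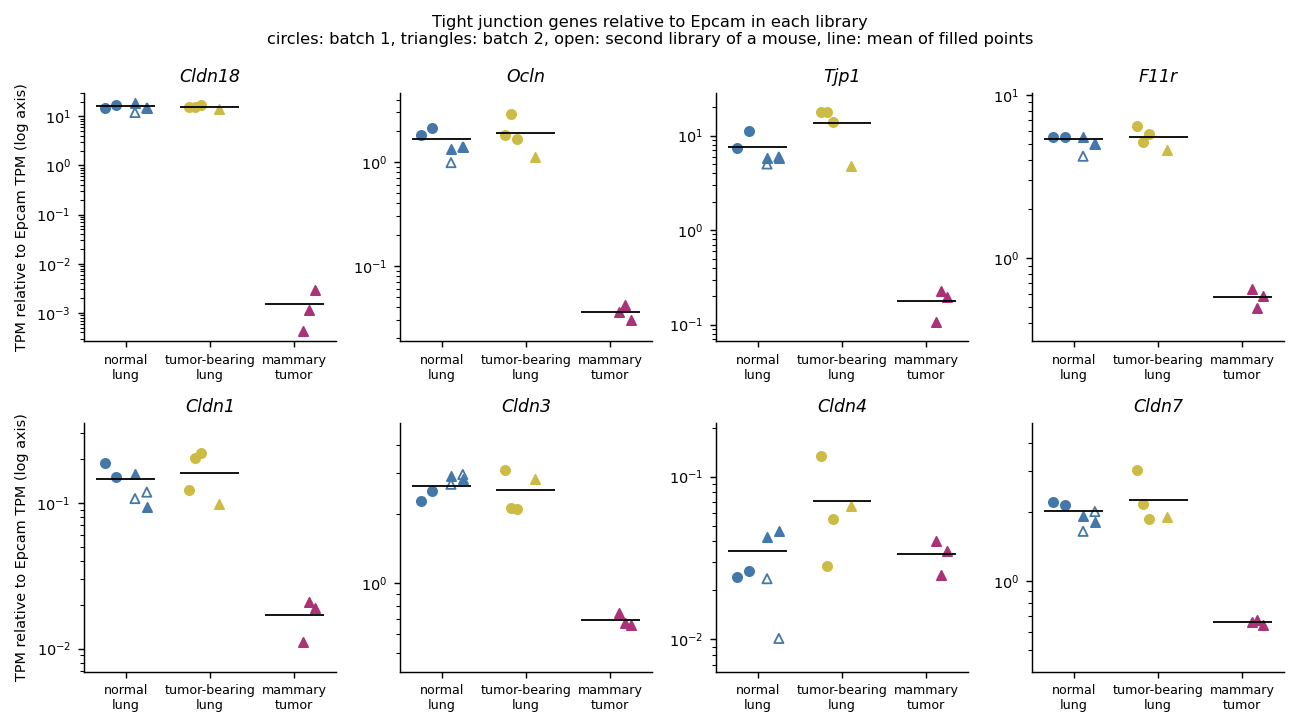
TPM of each tight junction gene divided by the TPM of Epcam in each library, on a log axis that differs between panels, with symbols as circles for batch 1, triangles for batch 2, open for the second library of a mouse and lines for the mean of the filled points. Tumors lie below all lungs in 7 panels, and Cldn4 is the panel in which they lie among them.

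The effect of a distant mammary tumor on the lung, which the study set out to examine, was not detectable in these genes. None of the 8 passed for tumor-bearing against normal lung in edgeR, none had an unadjusted p below 0.05, and none passed in limma's voom or among the 7 that DESeq2 gave an adjusted p (all but Cldn4). Over all genes edgeR called 0.0359% of 16727 and DESeq2 3.83% of the 11623 it tested, and 14% had an unadjusted p below 0.05 in edgeR. The groups overlapped in CPM for all 8, where 5.72% of all genes did not overlap. The members' median log2 fold change was −0.19, beside 0.01 over all genes. Cldn18 differed by −0.27 (95% interval −0.60 to 0.05, edgeR adjusted p 0.425), and its 2 lowest lungs were tumor-bearing lungs 6879 and 6880. Cldn4 differed by 0.91 (−0.14 to 1.95, edgeR adjusted p 0.415), an interval that leaves room for an increase of more than 2.0-fold at this depth. Tjp1 differed by 0.26 (−0.10 to 0.62, edgeR adjusted p 0.490), and the other 5 lay between −0.21 and −0.11, with edgeR adjusted p from 0.500 to 0.789.

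Within batches the signs were mixed. In batch 1 (3 tumor-bearing and 2 normal lungs) the log2 fold changes were −0.36 for Cldn18, −0.24 for Ocln, 0.46 for Tjp1, −0.31 for F11r, −0.22 for Cldn1, −0.36 for Cldn3, 1.07 for Cldn4 and −0.28 for Cldn7. In batch 2, where tumor-bearing lung 6877 stands alone against 4 normal lungs and is assumed to vary as they do, they were 0.05, −0.02, −0.06, 0.08, −0.11, 0.17, 1.22 and 0.21 in the same order. Cldn18, Tjp1, F11r, Cldn3 and Cldn7 thus had opposite signs in the batches, Cldn4 was positive in both, and none was called in either.

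The normal mice with a library in each batch show how far 2 libraries of 1 mouse can differ in these genes. For mice 6886 and 6888, the batch 2 level over the batch 1 level in CPM was 0.563 and 0.660 for Ocln, 0.701 and 0.529 for Tjp1, 0.834 and 0.867 for Cldn18, and 0.791 and 0.907 for F11r. Cldn3 went the other way, with 1.23 and 1.19. Cldn7 had 0.778 and 0.945, Cldn1 0.597 and 0.796, and Cldn4, at its low level, 1.02 and 0.388. For Ocln, Tjp1, Cldn1 and Cldn3 these shifts exceed in size, in both mice, the fitted difference between tumor-bearing and normal lung. For F11r, Cldn7 and Cldn4 they do so in 1 mouse, and for Cldn18 in neither.

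Other genes of the junction also went in both directions, as did genes at large. Over all genes tested, 24.5% were higher in tumors than in normal lung and 24.7% lower. Against tumor-bearing lung these shares were 22.6% and 23.7%. The counts of each list below stand beside these shares, and the other claudins were divided about as all genes were. Of 24 other claudins, 8 could be tested against normal lung: 2 were higher in tumors, 2 lower and 4 not called, with a median log2 fold change of 0.41. Cldn2, a pore-forming claudin of leaky epithelia, had 8.31 CPM in tumors against 0.297 CPM in normal lung (log2 fold change 5.62, SE 0.83, edgeR adjusted p 0.000161). Cldn8, a sealing claudin, had 8.08 against 1.13 CPM (2.82, SE 0.45, edgeR adjusted p 0.000287). Cldn5 was lower (−6.33, SE 0.30, edgeR adjusted p 2.69e-08), as was Cldn10, a claudin of secretory epithelia (−4.68, SE 0.55, edgeR adjusted p 2.66e-05).

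Among 12 other membrane proteins of the junction, 4 were higher in tumors than in normal lung and 7 lower, with a median of −1.15. Lsr and Ildr1, the angulins that mark contacts between 3 cells, were higher by 1.63 (SE 0.22, edgeR adjusted p 8.72e-05) and 2.09 (SE 0.27, edgeR adjusted p 6.01e-05), while their relative Ildr2 was lower (−3.16). Esam, an adhesion molecule of endothelium, was lower too (−3.76, SE 0.20, edgeR adjusted p 5.59e-08). Of the plaque and polarity proteins, the class of Tjp1, 16 of 27 were lower and 3 higher, with a median of −0.80. Those with the smallest p were Pard6b, of the polarity complex with atypical protein kinase C (−2.97, SE 0.19, edgeR adjusted p 2.48e-07), the angiomotin relative Amotl2 (−2.80), Pard6g (−2.38) and the scaffold Magi3 (−1.99). Against tumor-bearing lung the counts were again 4 higher and 7 lower, and 3 higher and 16 lower. On log2(TPM + 1) that comparison gave 1 higher and 1 lower of the plaque list in limma.

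Regulators of junction genes divided as well. Of 13 epithelial transcription factors and splicing regulators 6 were higher in tumors than in normal lung and 2 lower, with a median of 0.79. Grhl1, a grainyhead-like factor, was higher by 3.41, Elf5, a factor of luminal mammary progenitors, by 2.59 and the epithelial splicing regulator Esrp1 by 2.43, and Klf4 was lower (−3.95). Of 7 repressors of epithelial junction genes 4 were lower and 2 higher. Zeb1 had 9.81 CPM in tumors against 117 CPM in normal lung (−3.65, SE 0.31, edgeR adjusted p 2.19e-06), and Zeb2 (36.6 against 157 CPM) and Snai2 (−2.44) were lower too. Twist1 had 18.1 CPM in tumors and 0.102 CPM in normal lung (edgeR adjusted p 5.66e-06). These repressors are also expressed in stromal and endothelial cells, whose marker sums are given here without a test of their part. Fibroblast markers summed to 838 to 1389 CPM in tumors and 472 to 1379 CPM in normal lungs. Endothelial markers summed to 69.7 to 91.8 CPM in tumors and 1412 to 3243 CPM in normal lungs.

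Of 7 surface proteases and partners at epithelial junctions, 3 were higher in tumors than in normal lung and 4 lower. St14 (matriptase), which is known to cleave Epcam, was higher by 2.32 (SE 0.39, edgeR adjusted p 0.000397), and Prss8 (prostasin, −1.10) was lower. Against tumor-bearing lung the counts of these lists were 2 higher and 2 lower (other claudins), 6 and 2 (transcription factors and splicing regulators), 4 lower and 2 higher (repressors) and 2 higher and 3 lower (proteases).

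**Figure D5:**
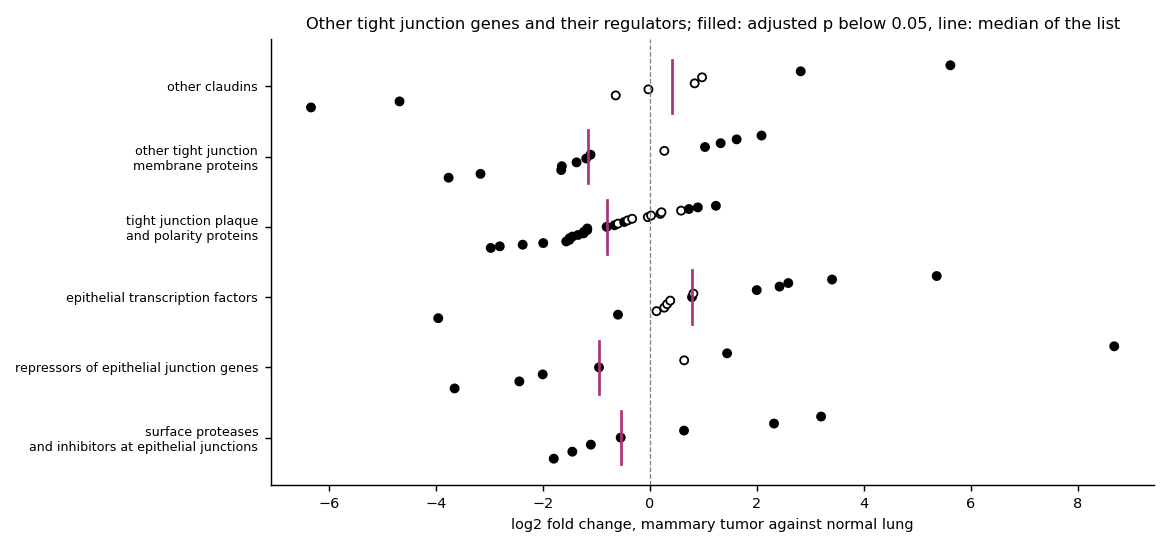
Log2 fold change of tumor against normal lung for each gene tested in 6 lists of other junction genes and their regulators, with 1 point a gene and the median of each list as a vertical line. Filled points have an edgeR adjusted p below 0.05; the point farthest right is Twist1, which is near 0 in lungs, and the median of the plaque and polarity list is −0.80.

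Between tumor-bearing and normal lung no gene of these 6 lists passed in edgeR or in limma's voom, with unadjusted p below 0.05 for 2 of 12 membrane proteins, 4 of 27 plaque and polarity proteins, 1 of 5 repressors and 0 of the other 3 lists. Over all genes, 14% had an unadjusted p below 0.05 in edgeR. DESeq2 called 1 plaque and polarity gene higher and 1 lower. The smallest p belonged to Llgl2, a basolateral polarity protein, with 42.2 CPM in tumor-bearing and 23.8 CPM in normal lung (0.78, SE 0.20, edgeR adjusted p 0.194).

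The genes whose log2 CPM followed each member most closely were sought among 16323 genes over the 11 libraries. For Cldn18 these were Ppp1r14c, Mecom and C130074G19Rik (Pearson r 0.999, 0.999 and 0.998). For Tjp1 they were Dact1, Gab1 and Sash1 (0.996, 0.995 and 0.992) and for Ocln Myo10, Arhgap31 and Ginm1 (0.987, 0.986 and 0.985). Cldn7 was followed by Tpi1, Hs6st1 and Ldha (0.991, 0.990 and 0.990), Cldn3 by Taldo1, Tomm6 and H2afv (0.991, 0.989 and 0.986) and Cldn4 by Atp6v0b, Bola1 and 2810001G20Rik (0.980, 0.979 and 0.978). F11r, whose level differed less between tissues, had lower values with Ascc1, Mrpl4 and Cldn12 (0.935, 0.907 and 0.901), as had Cldn1 with Aplp1, Tnfrsf11b and Traf3 (0.864, 0.864 and 0.825). The 11 points are 3 tumors and 8 lungs, so the difference between tissues is part of each value.

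Among the members themselves, Cldn3 and Cldn7 had an r of 0.95 over the 11 libraries and 0.90 over the 8 lungs once group and batch were taken out. Over the lungs Cldn7 and Tjp1 had −0.83, Cldn3 and Tjp1 −0.77, Cldn4 and Ocln −0.90, and Cldn18 and Cldn1 0.81. Cldn18 and Ocln, at 0.92 over the 11 libraries, had 0.11 over the lungs. These points share library depth and preparation, and the values are descriptions over few libraries.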

How the data were processed

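Total RNA of 20 mg of frozen lung or tumor was made into libraries from 100 ng after removal of ribosomal RNA and read as single ends of 75 bases, per the labels' protocols. RNA was fragmented or not according to its quality, and no value of that quality is given for single libraries. Salmon (no version), DESeq2 1.18.1 and mm10 are listed in the submitters' processing notes. The authors deposited estimated counts (expected counts) and TPM for 13 libraries. Over 17718 genes, count and TPM differed by a gene factor and a library factor alone (largest log2 deviation 1.23e-12), so both tables hold the same information on a gene. They were rounded to whole numbers. Of 46679 IDs, 46269 were named from GENCODE M21.

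edgeR 4.0.16 under R 4.3.3 (TMM, filterByExpr, quasi-likelihood test, Benjamini-Hochberg threshold 0.05 over all genes) fitted group and batch over 11 libraries for tumors and over 8 lungs for the lung comparison. Within a group each library is a separate mouse, but the 11 libraries come from 8 mice, since 3 mice gave both a tumor and a lung. CPM used TMM-scaled library sizes, and log2 CPM for correlations a prior count of 2. Alternatives were DESeq2 1.42.0, voom and log2 TPM (pseudocount 1 or 0.1) of limma 3.58.1, other scaling and filters, other uses of batches and repeat libraries, and leaving out each library. The log2 TPM fits used the deposited TPM without TMM scaling. The fits were tested on simulated data. Tumors and lungs of mice 6877, 6880 and 6881 are pairs from the same animals, per the labels. Their residuals correlated at 0.180, 0.0373 and −0.136 across genes, and a fit with the mouse as a replicate block was an alternative.

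Genes named are all 8 members, up to 4 genes with the smallest p of each list in each comparison, the defining genes of marker lists, and the 3 genes most correlated with each member. Aqp5 and Etv5 were named after their values were seen. The members and lists were chosen with earlier results of these data known. The list entries Cldn25 and Symk matched no gene name as written and were not analysed here, and other names for these genes were not searched. Another list gene, counted within its list, is not reported here. Protein sequences were not used here.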

Additional observations from a re-analysis of the deposited data

Results flagged for a closer look

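Tjp1 in tumor-bearing lung was marked because 1 library lies far from the rest of its group. Mouse 6877 had 209 CPM, where mice 6879, 6880 and 6881 had 454, 519 and 474 CPM, and on the log2 CPM scale its gap to the nearest of them was 0.853 of the whole range, above the critical value of 0.829 for 4 samples. It was the only one among 16 groups of lungs looked at, and chance marks about 1 in 20 such groups. Mouse 6877 is the only tumor-bearing lung of batch 2, and normal lungs of batch 2 had 208 to 236 CPM of Tjp1. Whether the batch accounts for it was not tested apart from the batch term of the fit.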

How the results depend on the processing

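The 6 members called in tumors against normal lung were 5 or 6 under each alternative, and against tumor-bearing lung also 5 or 6. The fit with the replicate block (mouse, tissue and batch) used all 13 libraries. It called 6 members and 8607 genes, and changed no member's call. Without the block, the fit on all 13 libraries called 9462 genes and the main fit on 11 libraries 8471. Genes called for tumor against tumor-bearing lung were 5322 on log2(TPM + 1) and 5530 with only the compared groups fitted. The split of calls there was 4128 higher and 4343 lower, but 4142 and 1180 on log2(TPM + 1) and 4154 and 1987 on log2(TPM + 0.1), and against normal lung 4490 and 4524 became 2432 and 4211 on log2(TPM + 0.1). Cldn4 against tumor-bearing lung was not called with the batch 2 libraries of the repeated mice (2.21, edgeR adjusted p 0.0675) or with only the compared groups (2.17, edgeR adjusted p 0.0782). On log2(TPM + 1) the Cldn18 difference from normal lung was −4.66 and that of Cldn4 0.41, since a pseudocount shrinks low genes.

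For tumor-bearing against normal lung, 6 genes were called in edgeR, 445 in DESeq2, 275 without the filter, 90 on log2(TPM + 1), 65 on log2(TPM + 0.1), 1 without the batch term, 1 with the batch 2 libraries of the repeated mice, 42 with all libraries and 39 in batch 1 alone. Leaving out single libraries gave 0 to 221: normal lung 6886 or tumor-bearing lung 6879, 6880 or 6881 left out gave 0, normal lung 6887 gave 16 and tumor-bearing lung 6877 gave 221. None of these settings called a member. On log2(TPM + 1) and log2(TPM + 0.1) the median difference of all genes between lungs was −0.23 and −0.54, beside 0.01 in edgeR. The cause was not tested.

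Signs turned only among differences that were not called. F11r against normal lung was −0.17 on log2(TPM + 1), −0.20 on log2(TPM + 0.1) and, with single libraries left out, −0.23 (tumor 6877) to 0.25; against tumor-bearing lung it was −0.015 (tumor 6877) to 0.50. Between lungs, Tjp1 was −0.40 and −0.43 on the TPM scales. With the batch 2 libraries of the repeated mice, Cldn3 was 0.17, Cldn7 0.22, Cldn18 0.059, Tjp1 −0.053 and F11r 0.080, and in batch 2 alone 0.17, 0.21, 0.055, −0.058 and 0.075. Cldn7 was −0.29 to 0.017 with single libraries left out, positive without normal lung 6886. Cldn4 in lungs is limited by its low counts, and Cldn18 in tumors likewise.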
